A study of Homo sapiens with 6 samples.

Results

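MUC19 had the largest changes from Control of the 10 mucin genes measured in BT474 breast cancer cells, with more signal on the BT474-Var1 arrays and less on the BT474-Var4 arrays than in Control in the group means of all 6 of its probes. At the 2 probes above background on every array, the signal was 6.93- and 7.10-fold higher in BT474-Var1 and 4.92- and 5.77-fold lower in BT474-Var4. The 10 genes were MUC1, MUC2, MUC4, MUC5AC, MUC5B, MUC13, MUC15, MUC16, MUC19 and MUC20, of 43317 gene names on the array, and a probe was taken when its gene name on the array equalled one of them. This gave 25 probes, of which 17, for 7 genes, had signal well above background in both replicates of some group and entered the fit, with 31858 probes in all. The genes were chosen by family, with their signals on these 6 arrays, and those of MUC19 above all, already known. Their values are therefore given as a description, without p-values, and a count of probes that passed the fit's threshold is no evidence about mucins.

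BT474 is an established human breast cancer line that expresses the estrogen receptor and carries an amplified ERBB2. It was measured on 6 one-colour arrays, 2 in each of 3 groups. Control cells carried empty pcDNA3.1 (MOCK in the labels). BT474-Var1 cells carried variant1, the long form, of the non-coding RNA NR2F1-AS1, which the study's methods place in pcDNA3.1/Hygro(+). BT474-Var4 cells carried variant4, the short form, which they place in pcDNA3.1-P2A-eGFP. The variants thus also differ in plasmid, and effects of insert and plasmid cannot be told apart. All 3 groups were grown in RPMI-1640 with serum after transfection and antibiotic selection, so every comparison includes differences between selected populations. The study describes a fall to a few cells and later outgrowth of colonies for the variant cells, and not for Control. Comparisons with Control therefore include that difference too. The study used 2 empty plasmids, and which of them the Control arrays hold is not given in the sources used here. Nothing says that the arrays of a group came from separate cultures, so the spread between them may be technical.

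Levels are log2 processed signals relative to the 75th percentile of the array, so that 0 is the signal below which 75% of probes fell, and they compare 1 probe across arrays, not different probes. The arrays had 47.6 to 57.5% of probes well above background and replicates correlated at 0.993 to 0.996 across probes. The slide was shared, and only BT474-Var1 was hybridised in its second column, so a column effect and the BT474-Var1 difference cannot be told apart. The Control arrays lay in rows 1 and 2 and all variant arrays in rows 3 and 4. A row effect and the difference of either variant from Control therefore cannot be told apart. All 8 luminal markers and 5 of 6 secretory epithelium markers were above background on all 6 arrays, while of the 3 basal markers KRT5 was above background on no array, KRT14 on at most 4 for a probe and TP63 on 1. Of markers of other cell types, COL1A1, PDGFRB, PTPRC, CDH5 and VWF were above background on all 6 arrays, and their part in the results was not tested. The NR2F1-AS1 probe A_19_P00320140 was well above background in BT474-Var1 alone, at least 15.1-fold above Control. The probe A_24_P51080 was highest in BT474-Var4, by 6.92 ± 0.73 (SE) on the log2 scale over Control, where 1 of 2 arrays was above background. A_22_P00006111 was above Control in both variants, by 3.36 ± 0.54 in BT474-Var1 and 7.98 ± 0.54 in BT474-Var4. A_22_P00006112 was higher by 3.75 ± 0.24 in BT474-Var1 and changed by -0.17 ± 0.24 in BT474-Var4. At both, 1 of 2 Control arrays was above background.

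Mucins are large glycoproteins whose serine- and threonine-rich repeats carry dense O-linked sugar chains. Secreted gel-forming mucins (MUC2, MUC5AC, MUC5B and MUC19 here) polymerise into mucus. Membrane mucins (MUC1, MUC4, MUC13, MUC15, MUC16 and MUC20) are anchored in the cell surface, and MUC1 and MUC4 are well known in breast epithelium, where MUC1 is shed into blood as the antigen CA 15-3 and MUC4 can partner ERBB2.

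The MUC19 probes are shown because the reading of MUC19 turns on what they detect. All 6 lie on the plus strand of chromosome 12 (hg19), between bases 21326 and 25184 of the MUC19 transcript of the array design, so they report on the 3′ end of a very long transcript and none reports on its beginning. Capitals mark the longest stretch a probe shares with another probe of the set. The longest was 12 bases, in A_21_P0007831 and A_21_P0007833, so the probes have mostly separate sequences.
MUC19 A_21_P0007830: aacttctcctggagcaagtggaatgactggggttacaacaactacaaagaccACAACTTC
MUC19 A_21_P0007831: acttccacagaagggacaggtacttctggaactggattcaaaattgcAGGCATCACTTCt
MUC19 A_21_P0007832: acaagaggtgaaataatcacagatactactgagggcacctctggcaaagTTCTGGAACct
MUC19 A_21_P0007833: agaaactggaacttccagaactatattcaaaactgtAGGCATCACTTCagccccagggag
MUC19 A_21_P0014574: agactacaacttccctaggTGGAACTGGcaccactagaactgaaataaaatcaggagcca
In that order they map to chr12:40917398-40918330, chr12:40921101-40921570, chr12:40924292-40924895, chr12:40930744-40931222 and chr12:40932596-40933336. Each 60-base probe thus covers 470 to 933 bases of genome, so each crosses at least 1 splice junction and matches spliced RNA. The remaining probe, A_33_P3244784, covers chr12:40964424-40964483 without a gap. For 5 of the 6 probes the array's annotation lists long non-coding transcript models beside MUC19, for 4 of them lnc-CNTN1-1, and A_21_P0014574 alone lists none. Those 5 probes cannot tell MUC19 mRNA from these transcripts, and whether A_21_P0014574 can was not tested.

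Probes of 3 other genes are shown because 2 probes of a gene differed or overlapped, or because 1 probe carried the change. The MUC1 pair lies at bases 793 and 197 of the transcripts the design names for them, on the minus strand of chromosome 1 (chr1:155158652-155159726, across a splice junction, and chr1:155161975-155162034). The MUC5B probe lies at chr11:1281060-1281239 on the plus strand and also crosses a junction. The MUC4 pair lies at chr3:195514760-195514819 and chr3:195514780-195514839 on the minus strand, and the capitals mark the 40 bases they share, so they are not separate readings.
MUC1 A_23_P137856: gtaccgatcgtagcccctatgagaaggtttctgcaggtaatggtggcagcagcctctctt
MUC1 A_33_P3332215: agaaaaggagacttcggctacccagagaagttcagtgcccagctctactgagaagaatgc
MUC5B A_24_P102650: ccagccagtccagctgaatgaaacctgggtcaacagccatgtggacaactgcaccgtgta
MUC4 A_24_P239176: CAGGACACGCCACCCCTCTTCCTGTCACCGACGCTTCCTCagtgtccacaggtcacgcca
MUC4 A_24_P239177: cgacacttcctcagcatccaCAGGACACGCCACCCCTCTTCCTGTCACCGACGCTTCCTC

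BT474-Var1 and BT474-Var4 were each compared with the same 2 Control arrays, and with each other, to see which mucins differ between cells carrying the long form, the short form or neither. With BT474-Var1 minus Control, 9 of the 17 tested mucin probes passed an adjusted p of 0.05 in the limma fit, against 34.4% of all tested probes, 7 of them higher (14.1% of all probes) and 2 lower (20.3%). With BT474-Var4 minus Control, 6 passed (24.2% of all probes), 1 higher (9.87%) and 5 lower (14.3%). Between the 2 variants, BT474-Var4 minus BT474-Var1, 13 passed (41.2%), 2 higher (20.4%) and 11 lower (20.8%). Probes that also changed at least 2-fold numbered 5 (3.94% of all probes), 5 (3.17%) and 8 (6.86%). In BT474-Var1 these 5 were all higher (2.78% of all probes) and 0 lower (1.16%), in BT474-Var4 0 higher (1.6%) and 5 lower (1.57%), and between the variants 0 higher (2.27%) and 8 lower (4.6%). The MUC19 probes A_21_P0007832 and A_21_P0007833 entered the fit only through BT474-Var1, where they were high, so their calls had to favour that group. MUC19 gave all 5 in the first comparison, MUC19 with MUC5B gave the 5 in the second, and MUC5AC joined them in the third. The second count includes A_21_P0007832, which was above background on only 1 Control array and on neither BT474-Var4 array. Its fall in BT474-Var4 thus rests on signals near background. The 2 groups did not overlap for 13, 11 and 14 of the 17 probes, against 71.8%, 68.6% and 74.7% of all tested probes.

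**Figure D1:**
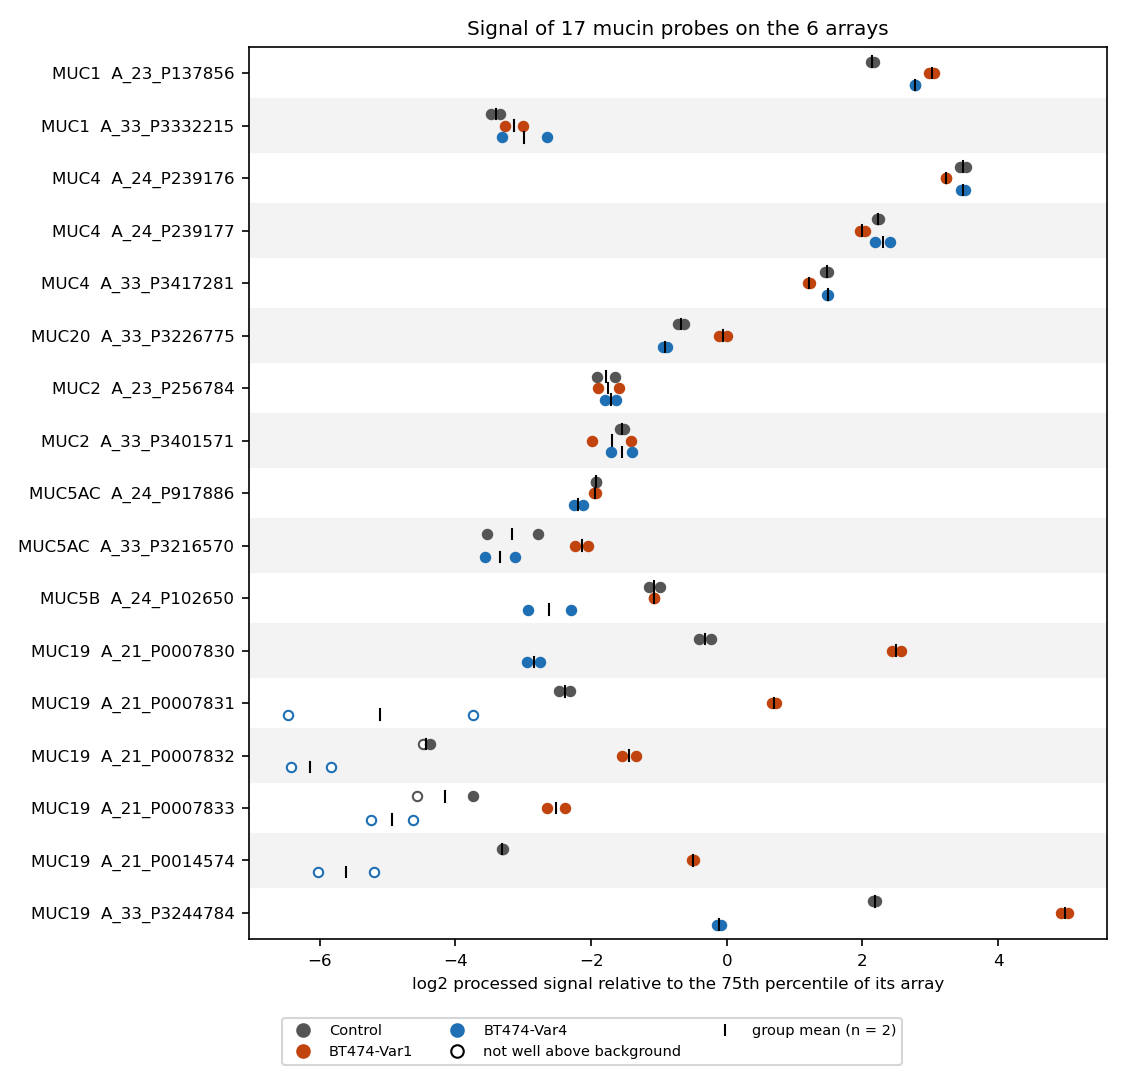
Signal of the 17 tested mucin probes on the 6 arrays (x axis, log2 processed signal relative to the 75th percentile of the array), 1 row per probe, points coloured by group, open where the probe was not well above background, and a bar at each group mean (n = 2). All 6 MUC19 rows run from BT474-Var4 on the left through Control to BT474-Var1 on the right, with Control A and B at 2.20 and 2.16 for A_33_P3244784.

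MUC19 was brightest at A_33_P3244784, where the Control arrays read 2.20 and 2.16, the BT474-Var1 arrays 4.92 and 5.03, and the BT474-Var4 arrays -0.08 and -0.15. The 3 groups did not overlap. The group means were 2.18 ± 0.03 in Control, 4.98 ± 0.08 in BT474-Var1 and -0.12 ± 0.04 in BT474-Var4 (SD, n = 2). Against Control, MUC19 signal was thus 6.93-fold higher in BT474-Var1, a log2 change of 2.79 ± 0.07 (SE). It was 4.92-fold lower in BT474-Var4, a log2 change of -2.30 ± 0.07. The 2 variants stood 34.1-fold apart. In RNA from a whole culture, fewer cells with the transcript and less transcript per cell cannot be told apart.

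The second probe above background on all 6 arrays, A_21_P0007830, read -0.24 and -0.41 in Control, 2.44 and 2.57 in BT474-Var1, and -2.75 and -2.95 in BT474-Var4. The order of the groups was the same, again without overlap, and the changes were 2.83 ± 0.11 and -2.53 ± 0.11 (SE), which is 7.10-fold higher and 5.77-fold lower than Control. These 2 probes lie at opposite ends of the covered stretch, 3858 bases of transcript apart.

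The 4 probes between them were dimmer, and in BT474-Var4 none was well above background on either array. A_21_P0014574, which lists no other transcript, read -3.30 and -3.32 in Control and -0.51 and -0.49 in BT474-Var1, 7.04-fold higher (2.81 ± 0.28, SE), and was at least 1.51-fold lower in BT474-Var4 than in Control. It was at least 10.6-fold lower in BT474-Var4 than in BT474-Var1. Such a bound sets the mean of the bright group against the dimmest signal that counted as above background on the dim group's arrays, or the probe's own signal there if higher.

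A_21_P0007831 read -2.48 and -2.31 in Control, 0.66 and 0.73 in BT474-Var1, and -6.47 and -3.74 in BT474-Var4. The BT474-Var4 pair lay far apart, and the change from Control to BT474-Var1, 3.09 ± 0.91 (SE), did not pass in the fit. The probe was at least 2.85-fold lower in BT474-Var4 than in Control and at least 24.2-fold lower than in BT474-Var1.

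For A_21_P0007832 only the second of the Control arrays (-4.48 and -4.37) was above background, while BT474-Var1 read -1.54 and -1.34, a change of 2.99 ± 0.22 (SE). It was at least 5.52-fold lower in BT474-Var4 than in BT474-Var1. For A_21_P0007833 only the first Control array (-3.74 and -4.57) was above background, and BT474-Var1 read -2.65 and -2.39, a change of 1.63 ± 0.36. This was the smallest difference among the MUC19 probes, and it was at least 2.60-fold lower in BT474-Var4 than in BT474-Var1.

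Without Control replicate 1, and likewise without Control replicate 2, A_21_P0007832 and A_21_P0014574 no longer passed between BT474-Var4 and Control. A_21_P0007833 lost its call against Control without Control replicate 2 or either BT474-Var1 array, and its change was 1.22 without that Control array. A_21_P0007831 did pass against Control, in both variants, with normexp or when either BT474-Var4 array was left out, and in BT474-Var1 also when only the groups compared were fitted. Without a BT474-Var1 array it lost its call between the variants. A normexp background correction kept every MUC19 sign and made every MUC19 change smaller. There A_33_P3244784 changed by 2.64 and -1.81, A_21_P0007830 by 2.26 and -1.14, A_21_P0007831 by 1.70 and -0.38, A_21_P0014574 by 1.08 and -0.30, A_21_P0007832 by 0.75 and -0.15, and A_21_P0007833 by 0.29 and -0.14 in BT474-Var1 and BT474-Var4.

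**Figure D2:**
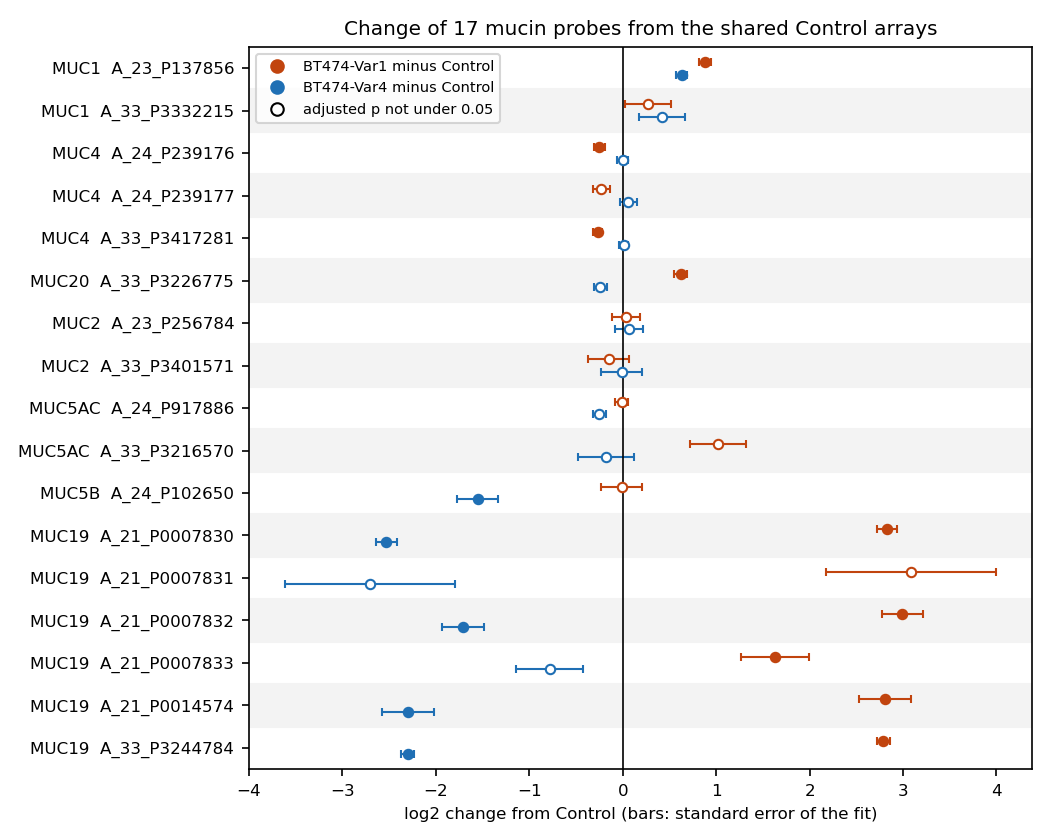
Change of the 17 tested mucin probes from Control (x axis, log2 change, bars give the standard error of the fit) in BT474-Var1 and BT474-Var4, filled where the adjusted p was under 0.05. Both changes use the same 2 Control arrays. The MUC19 probes A_33_P3244784 and A_21_P0007830 lie at 2.79 and 2.83 in BT474-Var1 and at -2.30 and -2.53 in BT474-Var4, the points of the other 4 MUC19 probes in BT474-Var4 rest on signals not well above background, and MUC5B lies at -0.01 and -1.55.

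Beside MUC19, no other mucin probe moved more than 1.02 from Control in BT474-Var1 or more than 1.55 in BT474-Var4. In the fit as described, none of the other 6 tested genes was higher in one variant and lower in the other with both changes passing. MUC1 was higher in both variants, MUC20 in BT474-Var1 alone, MUC5B lower in BT474-Var4 alone, and MUC4 slightly lower in BT474-Var1 alone. Whether MUC19 differs from the others was not tested, since its pattern was among the values known when the genes were picked.

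MUC1, the membrane mucin of luminal breast epithelium, read 2.12 and 2.17 in Control, 2.98 and 3.06 in BT474-Var1, and 2.78 and 2.77 in BT474-Var4 at its bright probe A_23_P137856. All 4 variant arrays lay above both Control arrays, 1.84-fold higher in BT474-Var1 (0.88 ± 0.06, SE) and 1.55-fold higher in BT474-Var4 (0.63 ± 0.06). The change to BT474-Var1 passed in every fit with an array left out, as did that to BT474-Var4. The -0.25 ± 0.06 between the variants also passed, but in no fit with an array left out. The dim MUC1 probe A_33_P3332215 read -3.48 and -3.34 in Control, -3.27 and -3.01 in BT474-Var1, and -2.65 and -3.32 in BT474-Var4, and none of its changes passed. They were 0.27 ± 0.25 and 0.42 ± 0.25 (SE), in the direction of the bright probe, and the 2 probes name different transcripts.

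MUC4, the large membrane mucin that can partner ERBB2, read 3.52 and 3.44 in Control, 3.51 and 3.45 in BT474-Var4, and 3.23 and 3.23 in BT474-Var1 at A_24_P239176. Control and BT474-Var4 overlapped, with a difference of 0.00 ± 0.06 (SE), and BT474-Var1 lay below both by 0.25. The probe A_33_P3417281, at another position, shares 21 bases with A_24_P239177 and 12 with A_24_P239176, so it is not a fully separate reading. It gave -0.27 ± 0.05 in BT474-Var1 and 0.01 ± 0.05 in BT474-Var4. The overlapping A_24_P239177 gave -0.23 ± 0.09 and 0.06 ± 0.09. The passing call of A_24_P239176 against Control, 1.19-fold lower, was lost whichever array was left out, and with quantile normalization (-0.13). It was also lost with a replicate block and when only the groups compared were fitted. That of A_33_P3417281, 1.20-fold lower, was lost without either Control array or either BT474-Var1 array, and quantile normalization gave -0.21. The last probe, A_24_P208825, was above background on no array.

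MUC20, a smaller membrane mucin, read -0.63 and -0.72 in Control, 0.01 and -0.11 in BT474-Var1, and -0.88 and -0.94 in BT474-Var4 at its single probe A_33_P3226775 (chr3:195464463-195464522). The groups did not overlap. The BT474-Var1 signal was 1.54-fold that of Control (0.62 ± 0.07, SE) and 1.81-fold lower in BT474-Var4 than in BT474-Var1, and both passed in every fit with an array left out, while the -0.24 ± 0.07 between BT474-Var4 and Control did not pass. With normexp the changes were 0.39 and -0.14, and both passed, as both did when only probes above background on all 6 arrays were tested, so there MUC20 had the directions of MUC19 at a smaller size. MUC20 has related copies on chromosome 3, and the array cannot tell reads of a near-identical copy apart.

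MUC13, MUC15 and MUC16 (the antigen CA-125) were not well above background on any array. Their 4 probes, A_23_P155236, A_23_P24332, A_23_P5211 and A_33_P3313110, had group means between -6.37 and -4.54. No change is given for them.

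Among the secreted mucins other than MUC19, MUC5B, a gel-forming mucin of airway and salivary glands, changed most. Its probe A_24_P102650 read -0.98 and -1.15 in Control, -1.08 and -1.08 in BT474-Var1, and -2.93 and -2.30 in BT474-Var4. Control and BT474-Var1 overlapped, with a difference of -0.01 ± 0.22 (SE), and both BT474-Var4 arrays lay below them. The signal was 2.92-fold lower in BT474-Var4 than in Control (-1.55 ± 0.22) and 2.90-fold lower than in BT474-Var1. The difference from Control did not pass without Control replicate 1 (-1.46) or Control replicate 2 (-1.63). It was also lost with the methods' analysis of variance and with no filter on dim probes. The difference between the variants passed in every fit with an array left out, and normexp gave -0.51 and -0.52 for the 2 differences.

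MUC5AC, the gel-forming mucin of stomach and airway surface, gave unlike values at its probes. A_24_P917886 changed by -0.01 ± 0.07 (SE) in BT474-Var1 and -0.25 ± 0.07 in BT474-Var4, and passed only between the variants (-0.24, or -0.05 with quantile normalization), a call lost in 5 of the 6 fits with an array left out, all but that without BT474-Var4 replicate 1. A_33_P3216570, which has no genome position in the array's annotation, read -3.54 and -2.78 in Control, -2.24 and -2.04 in BT474-Var1, and -3.56 and -3.12 in BT474-Var4, so BT474-Var1 lay above the other 2 groups, which overlapped. Its 2.30-fold difference between the variants passed, but not without any 1 of the 4 arrays compared, and its 2.02-fold difference from Control did not pass, although it did in 5 of 15 alternatives, among them the fit without Control replicate 2 (1.40). With normexp these differences were -0.35 and 0.29. The last probe, A_33_P3216568, was above background on 1 array.

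MUC2, the gel-forming mucin of intestinal goblet cells, did not pass in any comparison. A_23_P256784 read -1.65 and -1.92 in Control, -1.90 and -1.59 in BT474-Var1, and -1.64 and -1.79 in BT474-Var4, and the groups overlapped. Its changes were 0.04 ± 0.15 and 0.07 ± 0.15 (SE), and those of A_33_P3401571 were -0.15 ± 0.22 and -0.01 ± 0.22. Its other 2 probes, A_33_P3412384 and A_24_P84657, were above background on no array.

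The probes placed within 100 kb of a MUC19 probe were then read. Besides the MUC19 probes, 2 were tested, both for long non-coding transcript models on the same strand, and both had the MUC19 order of groups. The probe of XLOC_l2_002952, just beyond the bright MUC19 probe, read 1.83 and 1.79 in Control, 4.80 and 4.79 in BT474-Var1, and -0.78 and -0.83 in BT474-Var4. The probe of lnc-CNTN1-1, between 2 of the MUC19 probes, read -0.77 and -0.59, 1.15 and 1.02, and -3.39 and -3.31, with the second BT474-Var4 array not above background. The changes were 2.99 and -2.61 for XLOC_l2_002952 and 1.77 and -2.67 for lnc-CNTN1-1. They share the locus, and in part the transcript models, with the MUC19 probes and are no separate evidence about MUC19.

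Of the protein-coding genes on either side, LRRK2 and the brightest SLC2A13 probe had the MUC19 order of groups at a smaller size, without overlap. In the fit as described, SLC2A13 and CNTN1 passed in no comparison. LRRK2, a kinase gene upstream, read -2.57 and -2.35 in Control, -2.21 and -2.08 in BT474-Var1, and -3.37 and -3.13 in BT474-Var4. It did not pass in BT474-Var1 (0.32 ± 0.12, SE; adjusted p = 0.116, limma), though it did with normexp, and fell by 0.79 in BT474-Var4 (adjusted p = 0.0181), a call lost without either Control array or BT474-Var4 replicate 1 and -0.21 with normexp. Between the variants it was 2.15-fold lower in BT474-Var4 (adjusted p = 0.00485). SLC2A13, a myo-inositol transporter, had 3 tested probes, of which none passed in any comparison of that fit. Its brightest read -1.82 and -1.96 in Control, -1.10 and -1.73 in BT474-Var1, and -2.16 and -2.03 in BT474-Var4. The changes of this probe were 0.48 ± 0.22 and -0.20 ± 0.22. With normexp its rise in BT474-Var1 and its difference between the variants passed. CNTN1, a neural adhesion protein, changed by 0.55 ± 0.36 (adjusted p = 0.293, limma) and 0.36 ± 0.36 (adjusted p = 0.501). The first of these changes passed with normexp.

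**Figure D3:**
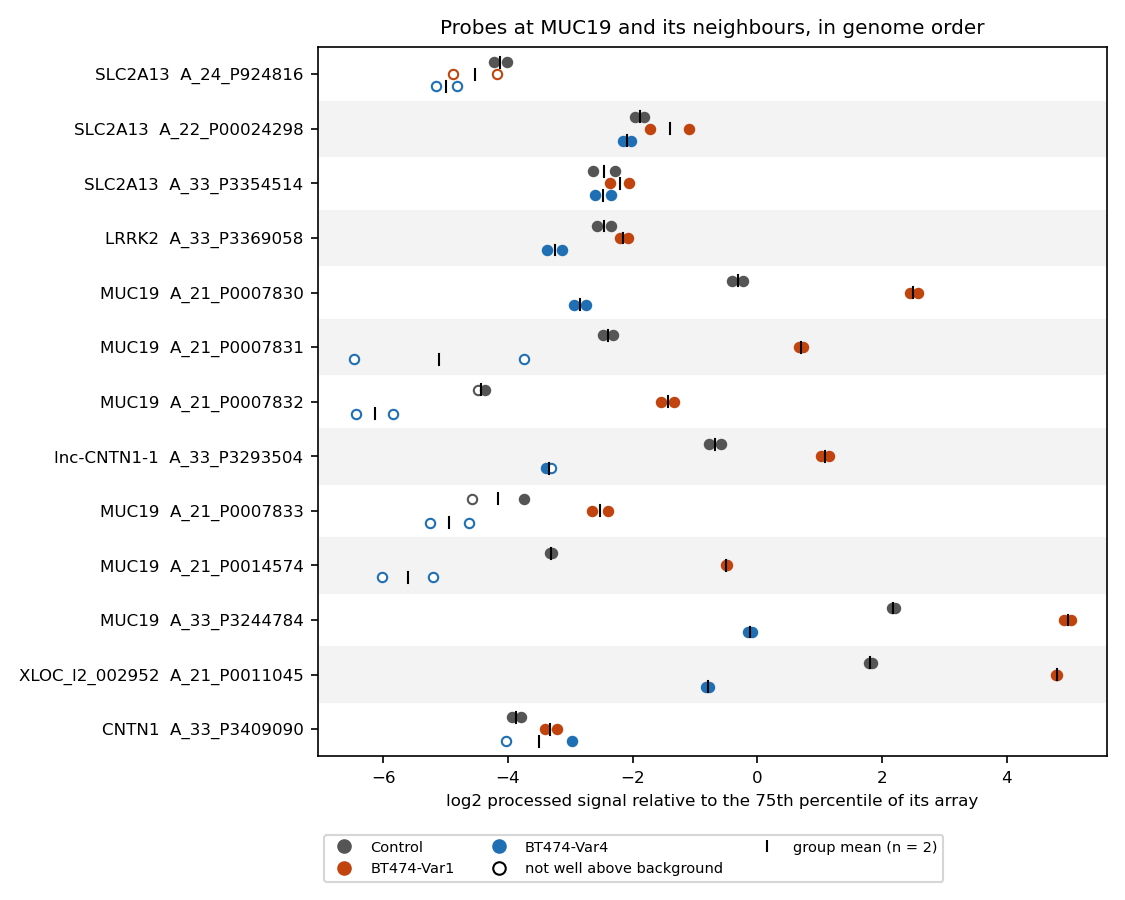
Signal of the tested probes at MUC19 and its neighbours on chromosome 12, in genome order from top to bottom (x axis, log2 processed signal relative to the 75th percentile), points coloured by group, open where not well above background, bars at group means (n = 2). The 6 MUC19 probes and the probes of lnc-CNTN1-1 and XLOC_l2_002952 show the spread between groups, -0.80 to 4.80 for the last, while those of SLC2A13, LRRK2 and CNTN1 stay within 2.15-fold between group means.

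The upstream sequence of MUC1 and MUC19 is shown because both were higher in BT474-Var1, although they differ in BT474-Var4. RefSeq promoters (GRCh38.p14, 250 bases before to 50 after a start site) were at hand for 6 of the 10 genes. MUC20, also higher in BT474-Var1, was not among them. The last 100 bases before the start site are given, with TATAAA, the core of the TATA box, in capitals.
MUC19 chr12:40393294-40393393, plus strand: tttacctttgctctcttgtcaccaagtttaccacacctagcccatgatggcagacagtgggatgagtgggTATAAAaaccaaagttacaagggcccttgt
MUC1 chr1:155192910-155193009, minus strand: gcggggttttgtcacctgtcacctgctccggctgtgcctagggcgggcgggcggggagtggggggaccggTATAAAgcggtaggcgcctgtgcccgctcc
TATAAA begins 30 bases before these start sites. The table holds another MUC1 start site, from which the same TATAAA lies 24 bases upstream. TATAAA was found on either strand in 2 of the 6 genes, these 2. Counted by promoter and not by gene, it was in 4049 of all 35116 promoters. The letters ACGTG, searched on both strands, were in no promoter of MUC1 or MUC19, against 21.4% of all promoters. A link of either motif to the changes was not tested. The array did not measure start site use, and the MUC19 probes lie far downstream of this start.

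The genes whose pattern was most like MUC19 were ranked by the root mean square distance between centred log2 values over the 6 arrays, for probes with a RefSeq gene name. They were LINC01197 (now LETR1), a long non-coding RNA, at 0.219, LOC101927345 at 0.529, PIP at 0.606, MKL2 (now MRTFB), a coactivator of SRF, at 0.682, and UGT2B15, a steroid glucuronidating enzyme, at 0.683. They were picked for this pattern, so no test is given. LINC01197 read -2.00 and -2.03 in Control and 1.22 and 1.40 in BT474-Var1, and was not above background in BT474-Var4, at least 3.52-fold lower than Control. LOC101927345 was above background in BT474-Var1 alone, so its rank rests on signals near background in Control and BT474-Var4. Its change of -1.22 between BT474-Var4 and Control did not pass. PIP, the prolactin-induced secreted protein of apocrine and breast cells, read 3.34 and 3.27 in Control, 5.29 and 5.33 in BT474-Var1, and 1.77 and 1.63 in BT474-Var4. PIP alone is also among the 5 with the highest Pearson correlation with MUC19.

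Other mucin genes and related pathways gave tests that do not use the 10 genes, on 1 probe per gene, in lists drawn up with results of these arrays known. Of 9 further mucins and mucin-like genes tested, 1 was higher and 3 lower in BT474-Var1, and 1 higher and 1 lower in BT474-Var4. Over all 24619 genes tested, 3500 were higher and 5087 lower in BT474-Var1, and 2513 higher and 3594 lower in BT474-Var4, with median changes of -0.05 and -0.08. MUCL1, the small breast mucin, rose 1.56-fold in BT474-Var1 (0.64 ± 0.06, SE; adjusted p = 0.00505, limma) and fell 2.17-fold in BT474-Var4 (adjusted p = 0.00327), so its direction matched MUC19 in both, at a smaller size. MUC6, a gel-forming mucin of stomach glands, fell 1.79-fold in BT474-Var1 (adjusted p = 0.0034) and changed by -0.10 in BT474-Var4, and the adhesion molecule MCAM rose 2.31-fold in BT474-Var4 (adjusted p = 0.00428). PODXL, an anti-adhesive sialomucin, fell by 0.55 in BT474-Var1. These calls held in every fit with an array left out.

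The polypeptide GalNAc transferases put the first sugar on a mucin serine or threonine. Of 12 tested, 9 were lower and none higher in BT474-Var1, with a median change of -0.53. In BT474-Var4, 2 were higher and 3 lower, with a median of 0.03. Over all 24619 genes tested, 3500 were higher and 5087 lower in BT474-Var1, and 2513 higher and 3594 lower in BT474-Var4. Between the variants 8 of the transferases were higher and none lower in BT474-Var4, with a median of 0.40. Of all 24619 genes, 5155 were higher and 5176 lower there, with a median of -0.03. GALNT14 fell 3.06-fold in BT474-Var1 (adjusted p = 0.00292, limma) and rose 2.12-fold in BT474-Var4 (adjusted p = 0.00496), in each case against the direction of MUC19. GALNT12 fell 2.78-fold and 2.27-fold in both (adjusted p = 0.00295 and 0.00414). The 9 in BT474-Var1 became 3 without Control replicate 1, Control replicate 2 or BT474-Var1 replicate 1 and 4 without BT474-Var1 replicate 2. GALNT10 rose by 0.53 and GALNT4 fell by 0.69 in BT474-Var4, calls lost without either Control array. That of GALNT10 was also lost without BT474-Var4 replicate 1. The GALNT14 and GALNT12 calls held throughout. With normexp the GALNT12 changes were -0.43 and -0.44.

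Of 17 tested enzymes that extend and cap the chains, 2 were higher and 4 lower in BT474-Var1, shares near those over all genes. There 3500 were higher and 5087 lower of 24619 tested. In BT474-Var4, 4 of these enzymes were higher and 5 lower, against 2513 and 3594 over all genes. FUT3, the Lewis fucosyltransferase, rose 4.17-fold in BT474-Var1 (adjusted p = 0.00226, limma), or by 0.55 on the log2 scale with normexp. ST3GAL1, which sialylates core 1 chains, rose 1.77-fold in BT474-Var4 (adjusted p = 0.00429), and GCNT1, which makes core 2 branches, fell 1.79-fold there (adjusted p = 0.00388). B4GALT5 fell by 0.65 in BT474-Var1, and ST3GAL4 differed by 0.77 between the variants, with BT474-Var4 above. These calls held with any array left out. FUT4, lower by 0.96 in BT474-Var1 and 1.18 in BT474-Var4, and C1GALT1, the core 1 enzyme, 0.69 higher in BT474-Var4, lost theirs without either Control array. The first FUT4 call was also lost without BT474-Var1 replicate 1 and the second without BT474-Var4 replicate 2. Both FUT4 calls were lost with the methods' analysis of variance. FUT6, 0.26 higher in BT474-Var1, lost its call whichever array was left out.

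Of 21 tested genes of the secretory epithelial program, 10 were lower and none higher in BT474-Var4, with a median of -0.28. Over all 24619 genes tested, 3594 were lower and 2513 higher there. In BT474-Var1, 5 secretory genes were higher and 3 lower, with a median of 0.04, against 3500 and 5087 over all genes. SCGB1D2, a secretoglobin of breast and other glands, fell 2.18-fold in BT474-Var4 (adjusted p = 0.00333, limma) and TFF1, an estrogen-induced trefoil peptide secreted with mucins, fell 2.05-fold (adjusted p = 0.00311). In BT474-Var1, CLCA2 rose 2.24-fold (adjusted p = 0.00294) and AGR2, a disulfide isomerase needed for gel-forming mucins, fell 1.52-fold (adjusted p = 0.00473). ZG16, a secretory granule lectin, was 4.17-fold lower in BT474-Var1 (adjusted p = 0.0145), a call lost without either Control array and with the methods' analysis of variance, and its change lay between -2.50 and -0.51 over the alternatives. BPIFB1, a secreted airway protein, rose by 0.65 in BT474-Var1. The 10 lower genes became 4 without Control replicate 1, 5 without Control replicate 2 or either BT474-Var4 array, and 8 without either BT474-Var1 array.

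**Figure D4:**
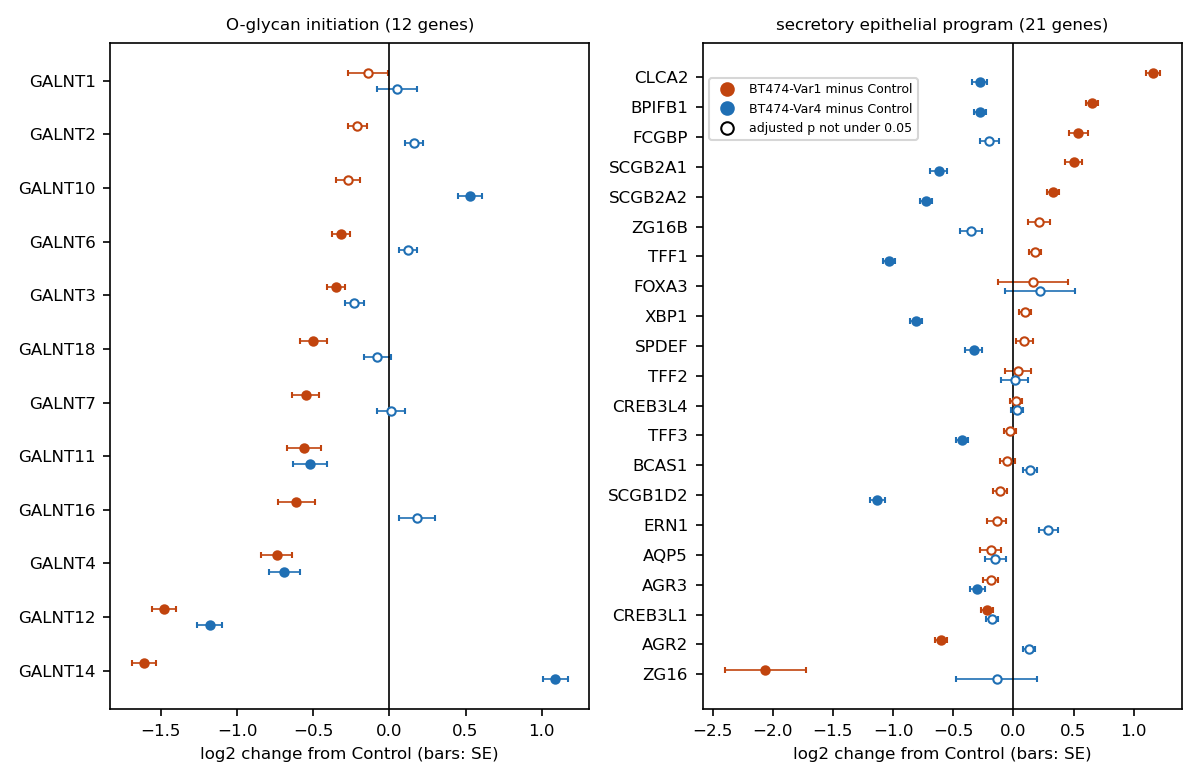
Change from Control of the 12 tested polypeptide GalNAc transferases (left, O-glycan initiation) and 21 tested secretory genes (right) in BT474-Var1 and BT474-Var4 (x axis, log2 change, bars give the standard error), filled where the adjusted p was under 0.05. The transferases lie below 0 in BT474-Var1, 9 of them filled, and 10 secretory genes are filled below 0 in BT474-Var4.

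Of 9 genes that shed or bind mucins, 3 were higher and 2 lower in BT474-Var1, against 3500 and 5087 of all 24619 genes tested. EGFR, a partner of MUC1 at the cell surface, rose 3.05-fold there (adjusted p = 0.00445, limma), or by 1.00 on the log2 scale with normexp, and LGALS3, a galectin that binds MUC1, rose 1.27-fold in BT474-Var4 (adjusted p = 0.0231), a call lost without any 1 Control or BT474-Var4 array. CTNNB1, which binds the MUC1 tail, rose by 0.36 in BT474-Var1, a call lost without either Control array. ERBB3 and LGALS3BP fell by 0.28 and 0.22 there, calls lost without most arrays. Of 19 tested genes next to a mucin gene on its chromosome, 3 were higher and 4 lower in BT474-Var1. In BT474-Var4, 2 of these neighbours were higher and 3 lower, against 2513 and 3594 of all 24619 genes tested. In both variants the neighbours' shares were near those over all genes. HEG1, beside MUC13, rose 2.83-fold in BT474-Var4 (adjusted p = 0.00382), or by 0.56 with normexp, and THBS3, beside MUC1, rose 1.42-fold in BT474-Var1 (adjusted p = 0.0143), a call lost without Control replicate 2 or either BT474-Var1 array. TFRC, near MUC4 and MUC20, fell by 0.71 in BT474-Var1 and by 0.46 in BT474-Var4, the second call lost without either Control array. MOB2, near MUC2 and MUC5B, rose by 0.55 and SLC12A8, near MUC13, fell by 0.75 in BT474-Var1, both lost without Control replicate 1. OR7E24, an olfactory receptor gene, rose by 0.30 in BT474-Var4, and CD164, a sialomucin of the list above, was lower by 0.24 in BT474-Var4 than in the other variant, and both calls were lost whichever array was left out.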

How the data were processed

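Total RNA was labelled with Cy3 and hybridised to 6 one-colour Agilent SurePrint G3 Human arrays. The deposited scanner intensity values are processed signals that the authors' Agilent Feature Extraction (version 11.5.1.1) subtracted for background and detrended, and the deposited table holds the authors' log2 values shifted to the 75th percentile of each array. Here the same shift was applied to log2 processed signals, outlier spots were left out and spots of a probe averaged. Depth is set by signal over background, and 2 arrays a group limit the precision.

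Probes that the scanner called well above background in both replicates of a group were tested with limma 3.58.1 in R 4.3.3 (with data.table, version 1.17.8), with group means over all 6 arrays and Benjamini-Hochberg adjustment over all tested probes. Passed means an adjusted p under 0.05. The p-values measure the spread between these arrays. Groups were taken from the sample titles.

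The 10 mucins, the 6 lists and the alternatives were chosen with earlier results of these data known. Named were every mucin probe, the 2 largest passing rises and falls of each list and comparison, the neighbours of MUC19, the 5 genes most like it and NR2F1-AS1. List genes were read on their brightest tested probe. Lists were other mucins, O-glycan initiation, O-glycan extension and capping, secretory program, shedding and binding, and genome neighbours. The 100 kb window was chosen after seeing the data. Alternatives were normexp (offset 50), quantile normalization, other filters on dim probes, the deposited table, a replicate block, another variance model, only the groups compared, the methods' analysis of variance and each array left out. The fit was tested on simulated data. Probe positions are those of the array files (hg19), and no annotation of that build was used.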

Additional observations from a re-analysis of the deposited data

How the results depend on the processing

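All 28 passing changes of mucin probes kept their sign in each alternative that gave a value. Calls lost numbered 1 of 28 with normexp, 4 with quantile normalization, 12 without a filter on dim probes, 0 with the deposited table, 1 with a variance trend, 4 with only the groups compared, 4 with the methods' analysis of variance and 5 to 9 with an array left out, where the remaining array of its group is assumed to vary like the others. Probes near background have values that move with the background correction. Counts below follow the order BT474-Var1 minus Control, BT474-Var4 minus Control and BT474-Var4 minus BT474-Var1, and the cause of their moves was not tested. Over all tested probes 10959, 7709 and 13117 passed. With no filter on dim probes these were 2672, 722 and 5112, and leaving out an array gave 4172 to 9409, 1501 to 5487 and 8086 to 10693. Of mucin probes 9, 6 and 13 passed, with no filter 2 in the second and 8 in the third, and with an array left out 6 to 9, 3 to 7 and 7 to 10. With no filter, other mucins gave 2 in the first, O-glycan initiation 2, 2 and 3, extension and capping 2 and 2 in the first and second, the secretory program 3, 4 and 9, shedding and binding 1, 0 and 1, and neighbours 1, 1 and 5. Normexp gave 14 neighbours in the first and 11 extension and capping genes in the third. A variance trend gave 12 neighbours in the first and 4 other mucins in the second. Quantile normalization, and likewise a fit of only the groups compared, gave 3 and 1 shedding and binding genes in the first and second, and the latter fit and the methods' analysis of variance each gave 3 neighbours in the second. With an array left out, initiation gave 3 to 9, 2 to 5 and 4 to 7, extension and capping 2 to 4, 3 to 7 and 6 to 8, the secretory program 4 to 7, 4 to 8 and 12 to 14, shedding and binding 1 to 3, 0 to 1 and 3 to 5, neighbours 2 to 7, 1 to 4 and 6 to 8, and other mucins 3, 2 and 4 to 5. By Pearson r in place of distance, 1 of the 5 genes most like MUC19 was shared.

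The A minus B differences of pairs of groups correlated at -0.0154 to 0.0452, so no effect shared by the letters was seen. This cannot tell whether the arrays were cultured or processed in pairs. With the letter as a replicate block, 3 of 28 mucin calls were lost and 4907 probes passed between BT474-Var4 and Control. The same replicate block gave 3 extension and capping and 3 shedding and binding genes in BT474-Var1, and 6 secretory, 0 shedding and binding and 3 neighbour genes in BT474-Var4.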
